A study of Mus musculus with 4 samples.

Results

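The enzymes that make cholesterol and fatty acids, together with the sterol-sensing proteins that control their genes, form a set of 34 genes, set here against the 18193 genes measured on these arrays. They were taken by gene symbol from a list of names, which was drawn up with earlier results of these data known. Of the 34 genes, 24 belong to cholesterol synthesis and its control and 10 to fatty acid synthesis, desaturation and elongation. A named probe set was found for 33 of them, 23 and 10 in the 2 groups. The exception was Acat2, a thiolase that makes the acetoacetyl-CoA used at the start of the pathway. All 33 measured genes lay above the floor used here, the array median at a normalised signal of 82.7, on all 4 arrays.

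RNA came from 4 mouse cell cultures, with 1 Affymetrix array for each. R1 is a line of embryonic stem (ES) cells, and multipotent germline stem (mGS) cells resemble ES cells but arise in germline cultures. Both of these were kept in a standard medium for ES cells. The cells labelled Trp53KO are germline stem (GS) cells from Trp53 knockout mice, with the strain name ICR in their title, and the last culture was GS cells with no mutation or strain named, which are testis-derived cultures of spermatogonial stem cells. Both GS cultures were kept in a modified medium based on StemPro-34. The labels give neither the age of the animals nor the number of animals or cultures behind an array, and R1 is a single line.

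With 1 array per group there is no spread between replicates, so no difference below has a replicate check or a p-value. Differences are given by size, and 2-fold, a log2 difference of 1, is the size that is counted. The share of all genes past the same size is given for each comparison. The only spread that the data give is between probe sets of the same gene, and it covers the measurement and not the culture. For mGS minus GS its SD was 0.32 on the log2 scale over 21 member genes with several probe sets above the floor, and 0.50 over all 4474 such genes.

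Cells build cholesterol from acetyl-CoA through mevalonate and isoprenoid units to squalene, which is closed into lanosterol and trimmed to cholesterol. Fatty acids start from the same cytosolic acetyl-CoA, are built by fatty acid synthase and are then elongated and desaturated. Genes of both routes are controlled by the SREBP transcription factors, which the escort protein Scap carries to the Golgi for cleavage when membrane sterol is low and which the Insig proteins hold in the endoplasmic reticulum when sterol is high. Dividing cells need both kinds of lipid for new membranes.

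The labelled cell types were checked against marker genes. The summed signal of 10 germ cell markers was 1636 on the ES array, 3942 on the mGS array, 89493 on the Trp53KO array and 89177 on the GS array. For 10 markers of pluripotent cells it was 89934 on the ES array, 105790.0 on the mGS array, 5779 on the Trp53KO array and 7017 on the GS array. Each label matched the summed markers of its cell type, but the 2 GS cultures were not alike in every marker. Gfra1, Ret and Sycp1 were 2.39-fold, 2.83-fold and 2.77-fold lower on Trp53KO than on GS. The other 7 germ cell markers lay within 2-fold. Of the pluripotent markers, Sox2 was 5.79-fold lower and Utf1 3.27-fold higher on Trp53KO than on GS. The label Trp53KO could not be checked at its target, since the signal of Trp53 was not analysed here. Fibroblast markers, 15 genes, summed to 67942 on the ES array, 15509 on the mGS array, 6407 on the Trp53KO array and 3460 on the GS array, with 14, 10, 10 and 8 of them above the floor. Fn1 alone gave 10096 of the mGS sum. Of 10 fibroblast markers compared between mGS and GS, 5 were higher on mGS by 2-fold or more and 5 lay within 2-fold. Proliferation markers, 11 genes, summed to 83309, 79754, 29573 and 82443 in the same order, so the Trp53KO array stood apart from the other three in this list. The median of 6 probe sets of dap, an added control RNA, was 2545 on the ES array and 3055 on the Trp53KO array, against 255 on the mGS array and 271 on the GS array. The hybridisation control bioC, over 4 probe sets, had a median of 602 on the Trp53KO array and between 3066 and 3499 on the other arrays. In RNA of whole cultures, fewer cells of a type and less RNA per cell cannot be told apart.

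Upstream sequence was available for 27 of the 34 genes, from RefSeq on build GRCm38.p6. The 250 bases before the annotated start are shown for 4 genes that carry the extremes of the results below. On the mGS array relative to GS, Hmgcs1, Cyp51 and Acss2 had the largest negative differences among mevalonate enzymes, sterol enzymes and fatty acid genes, and Ebp had the largest positive difference of all members. Capitals mark the sterol regulatory element (SRE), to which SREBP binds, searched as TCACNCCAC, and the CCAAT box, searched as CCAAT, both on either strand, so that ATTGG is a CCAAT box on the other strand. Each sequence runs 5′ to 3′ on the strand of its gene. The windows are chr13:119690101-119690350 on the plus strand for Hmgcs1, chr5:4104698-4104947 on the minus strand for Cyp51, chr2:155517793-155518042 on the plus strand for Acss2 and chrX:8193513-8193762 on the minus strand for Ebp.
Hmgcs1: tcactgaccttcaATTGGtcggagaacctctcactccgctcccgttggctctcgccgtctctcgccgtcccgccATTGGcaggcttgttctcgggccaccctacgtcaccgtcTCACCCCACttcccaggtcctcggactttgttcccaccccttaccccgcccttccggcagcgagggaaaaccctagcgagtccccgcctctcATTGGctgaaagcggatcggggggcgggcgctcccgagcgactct
Cyp51: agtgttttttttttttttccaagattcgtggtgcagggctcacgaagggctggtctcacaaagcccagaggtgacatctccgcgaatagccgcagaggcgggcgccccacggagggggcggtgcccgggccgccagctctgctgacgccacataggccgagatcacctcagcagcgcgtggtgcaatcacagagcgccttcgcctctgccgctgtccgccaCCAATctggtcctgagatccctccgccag
Acss2: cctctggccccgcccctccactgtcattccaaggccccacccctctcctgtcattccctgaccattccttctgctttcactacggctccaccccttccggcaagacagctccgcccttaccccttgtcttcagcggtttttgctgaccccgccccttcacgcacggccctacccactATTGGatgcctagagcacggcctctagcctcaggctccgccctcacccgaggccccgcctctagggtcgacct
Ebp: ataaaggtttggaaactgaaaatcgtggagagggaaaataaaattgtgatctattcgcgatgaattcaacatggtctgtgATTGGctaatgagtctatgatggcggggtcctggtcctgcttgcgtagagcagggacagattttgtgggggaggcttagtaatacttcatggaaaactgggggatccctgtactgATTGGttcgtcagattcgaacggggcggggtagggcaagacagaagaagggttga

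Some genes have several annotated starts, so the 27 genes had 35 windows, and every motif was searched on both strands. Hmgcs1 held the only SRE among these windows, with 128 bases between it and the start. Of all 32851 windows of the annotation, 1.05% held an SRE. The search with no free base, TCACCCCAC, found the same window of Hmgcs1 and 0.496% of all windows. CCAAT boxes were in 22 of the 35 windows, 62.9%, against 33.9% of all windows, and GC boxes, searched as GGGCGG, in 25, or 71.4%, against 32.7%. The E-box CACGTG was in 6 windows, 17.1%, against 6.02%. None of these motifs contains another, apart from the SRE searched in its 2 forms. A CCAAT box was found for 11 of the 13 genes with a window that were lower on mGS than on GS by 2-fold or more, for 8 of 10 within 2-fold, and for 2 of 3 that were higher, against 37.5% of all 27025 genes with a window. A GC box was found for 13 of 13, 7 of 10 and 1 of 3 genes in the same order, against 35.4% of all genes. The Ebp window shown above thus holds CCAAT boxes too, as do those of Hmgcs1, Cyp51 and Acss2. A match is a description of the letters, and an SRE outside these windows or with other letters would not have been found.

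The study set mGS against GS cells to search for molecules that contribute when GS cells convert. Most cholesterol genes were lower on the mGS array, while the fatty acid genes went in both directions. By 2-fold or more, 13 of 23 cholesterol genes were lower and 2 higher, with a median log2 difference of -1.07. Over all 11981 genes compared, 16.5% were lower and 15.3% higher by this size, and the median was -0.04. Of the 10 fatty acid genes, 2 were lower, 1 was higher and 7 lay within 2-fold, with a median of -0.30. These counts of fatty acid genes were near the shares of all genes, and with the values as deposited 1 was lower. The cholesterol median was -0.76 with the mean of each gene's probe sets and -0.999, just short of 2-fold, without probe sets prone to cross-hybridisation. The lower cholesterol genes numbered 9 of 23 with the mean of probe sets and 11 without those prone to cross-hybridisation. Cell type and medium changed together between these arrays and cannot be told apart.

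Hmgcs1, the synthase that makes HMG-CoA, had a signal of 6316 on the ES array, 7203 on the mGS array, 10240.0 on the Trp53KO array and 25033 on the GS array. The GS array was thus far above the other three, and the mGS value was 3.48-fold lower than it. The 4 other probe sets of Hmgcs1 gave log2 differences of -2.00 to -1.32 for mGS minus GS. Idi1, the isomerase of the smallest isoprenoid units, had 4009.6 on the ES array, 3045 on the mGS array, 4449 on the Trp53KO array and 9285 on the GS array. Fdps, which joins those units into farnesyl diphosphate, read 5436 on the ES array, 5385 on the mGS array, 9769 on the Trp53KO array and 14564 on the GS array. Both genes were lower on the mGS array than on the GS array, Idi1 by 3.05-fold and Fdps by 2.70-fold. The ES and mGS arrays gave almost the same Fdps signal, and the Trp53KO array lay between them and GS.

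The kinases and the decarboxylase between HMG-CoA and isoprenoids did not share this pattern on their chosen probe sets. Pmvk, the phosphomevalonate kinase, had 570.4 on the ES array, 489.5 on the mGS array, 174 on the Trp53KO array and 188 on the GS array. It was 2.61-fold higher on the mGS array than on the GS array, on its only probe set. Mvk, the mevalonate kinase, and Mvd, the diphosphomevalonate decarboxylase, had log2 differences of 0.14 and -0.08 for mGS minus GS. A further probe set of Mvd gave -0.72 and was highest on the GS array, with 591 on ES, 612 on mGS, 675 on Trp53KO and 1012 on GS. On its chosen probe set Mvd had the narrowest range of all members, 1.21-fold from the lowest to the highest array.

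Among the 11 sterol enzymes, which turn farnesyl diphosphate into cholesterol, 6 were lower and 1 was higher on the mGS array than on GS by 2-fold or more, where all genes gave 16.5% and 15.3%. Cyp51, the lanosterol demethylase, had 1351 on the ES array, 896 on the mGS array, 1403 on the Trp53KO array and 4301 on the GS array. The GS array was again far above the other three, and the mGS value was 4.80-fold lower than it, the largest such difference among the cholesterol genes. Another probe set of Cyp51 gave a log2 difference of -1.51. Dhcr7, a reductase at the end of cholesterol synthesis, read 1029 on the ES array, 1235 on the mGS array, 6226 on the Trp53KO array and 3514 on the GS array. Unlike Cyp51 it was highest on the Trp53KO array, and it was 2.85-fold lower on the mGS array than on GS. Nsdhl, a sterol dehydrogenase encoded on the X chromosome, had 1223 on the ES array, 1792 on the mGS array, 1746 on the Trp53KO array and 4075 on the GS array. The mGS and Trp53KO arrays were thus alike for Nsdhl, and the mGS value was 2.27-fold lower than GS.

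Hsd17b7, a sterol ketoreductase, Lss, which closes squalene epoxide into lanosterol, and Msmo1, a sterol methyl oxidase, were lower too. Hsd17b7 read 347 on the ES array, 291 on the mGS array, 409 on the Trp53KO array and 705 on the GS array, Lss read 952, 1159, 1241 and 2426 in the same order, and Msmo1 read 2415, 2121, 3441 and 4269. All 3 were highest on the GS array, and the mGS values were below it by 2.42-fold for Hsd17b7, 2.09-fold for Lss and 2.01-fold for Msmo1. Other probe sets of Hsd17b7 gave -0.87 and -0.76 and those of Lss -0.45 and -0.42, all lower but short of 2-fold, while that of Msmo1 gave -1.28, past it. Sqle, the squalene epoxidase, was just short of the counted size at 1.998-fold lower, against 2.01-fold for Msmo1 just past it. Its signal was 2527 on the ES array, 2540.2 on the mGS array, 3130.1 on the Trp53KO array and 5076 on the GS array, again with GS apart from the other three. Fdft1, the squalene synthase, read 3277 on the ES array, 4124 on the mGS array, 5965 on the Trp53KO array and 6631 on the GS array. It was 1.61-fold lower on mGS than on GS, and Sc5d, a sterol desaturase, differed by 1.09-fold.

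Ebp, the sterol isomerase and also encoded on the X chromosome, went the other way. Its signal was 1257 on the ES array, 1665 on the mGS array, 116 on the Trp53KO array and 133 on the GS array. It was close to the floor on both GS arrays and 12.5-fold higher on the mGS array than on GS, on its only probe set. Tm7sf2, a sterol reductase, had 264 on the ES array, 298 on the mGS array, 103 on the Trp53KO array and 166 on the GS array, a smaller difference of 1.80-fold in the same direction. No other cholesterol gene but Pmvk and, by 1.10-fold, Mvk was higher on the mGS array than on GS.

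**Figure D1:**
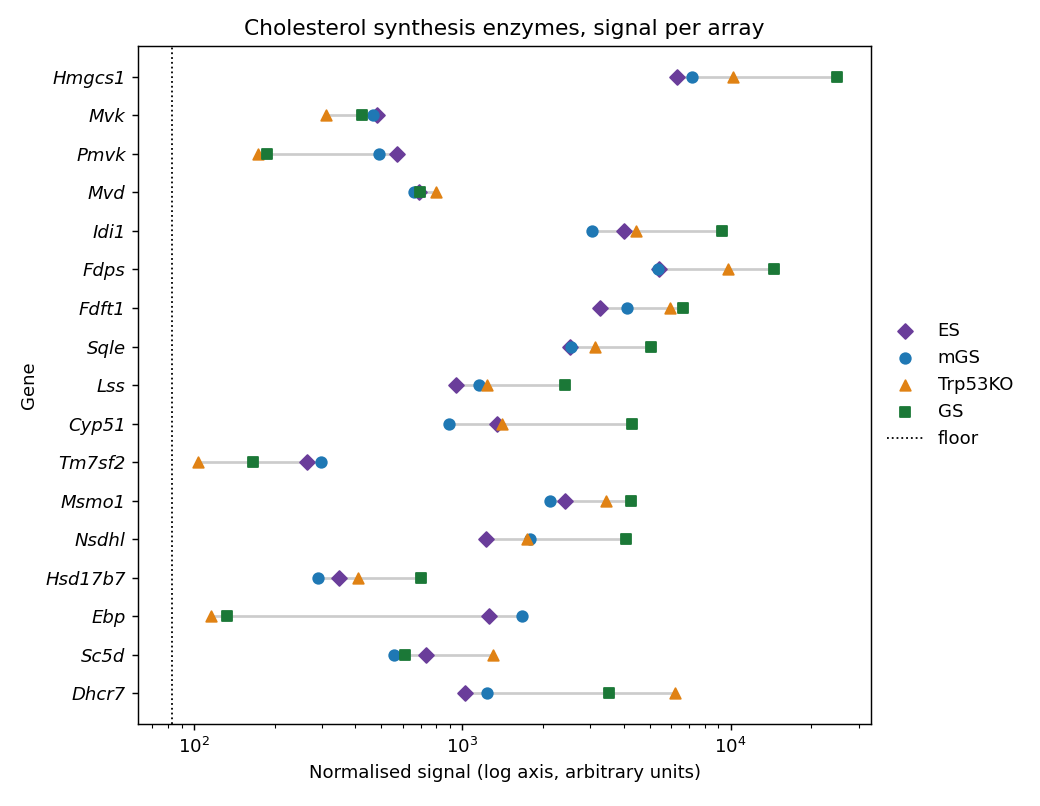
Normalised signal (horizontal log axis, arbitrary units) of 17 enzymes of cholesterol synthesis, from the mevalonate steps at the top to Dhcr7 at the bottom, with 1 symbol for each array and a dotted line at the floor. For Hmgcs1, at 25033, and Cyp51, at 4301, the GS symbol stands to the right of the other three, while for Ebp and Pmvk the ES and mGS symbols stand to the right of both GS cultures.

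The genes that sense sterol and control the pathway were mostly lower on the mGS array as well. Of 6 genes in this group, 4 were below GS by 2-fold or more, where all genes gave 16.5%, and none above it, and the median was -1.39. Srebf2, the SREBP gene tied mainly to cholesterol synthesis, had 893 on the ES array, 966 on the mGS array, 3902 on the Trp53KO array and 2451 on the GS array. Its escort Scap read 970.4 on the ES array, 780.4 on the mGS array, 3399 on the Trp53KO array and 2177 on the GS array. For both genes each array in ES medium was below each GS culture, and the Trp53KO array was the highest. The mGS value was 2.54-fold lower than GS for Srebf2 and 2.79-fold lower for Scap. A further probe set of Srebf2 gave -0.77, short of 2-fold.

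Insig1, the Insig gene that is itself induced by SREBP, had 1117 on the ES array, 1106 on the mGS array, 2159.9 on the Trp53KO array and 2984 on the GS array. It was 2.70-fold lower on the mGS array than on GS. Stard4, a carrier of cholesterol between membranes, read 436 on the ES array, 839.9 on the mGS array, 1962 on the Trp53KO array and 2940.1 on the GS array, 3.50-fold lower on mGS than on GS. Its other probe sets gave -1.42 and -1.23. Srebf1, the SREBP gene tied mainly to fatty acid synthesis, had 1086 on the ES array, 1744 on the mGS array, 2479 on the Trp53KO array and 2775 on the GS array. It had the same order of arrays as Stard4 with a smaller difference, 1.59-fold lower on mGS than on GS. Insig2, the paralogue of Insig1, differed by 1.01-fold on its chosen probe set, while its other probe sets gave 0.75 and 0.79, so its direction depended on the probe set.

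In fatty acid synthesis the genes that supply acetyl-CoA were lower on the mGS array. Acss2, which makes acetyl-CoA from acetate, had 169 on the ES array, 181 on the mGS array, 1373 on the Trp53KO array and 1235 on the GS array. The values split with no overlap by culture medium and cell type, which changed together, and the mGS value was 6.83-fold lower than GS. Another probe set of Acss2 gave -2.94 with its mGS value raised to the floor, so this is a bound. Acly, which makes acetyl-CoA from citrate, had 6548 on the ES array, 8704 on the mGS array, 12790.5 on the Trp53KO array and 17744 on the GS array. It was 2.04-fold lower on mGS than on GS, but its log2 difference was -0.72 with the values as deposited. Acaca, a gene of the acetyl-CoA carboxylase that commits acetyl-CoA to fatty acids, had 892 on the ES array, 950.2 on the mGS array, 2726 on the Trp53KO array and 1433 on the GS array. Fasn, the fatty acid synthase, had 4220.4 on the ES array, 4145 on the mGS array, 3524 on the Trp53KO array and 3246 on the GS array. Acaca was 1.51-fold lower and Fasn 1.28-fold higher on mGS than on GS, so the synthase itself did not share the direction of the genes that feed it.

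Elovl6, which elongates palmitate, was the fatty acid gene counted as higher on the mGS array. It had 1779 on the ES array, 3240.2 on the mGS array, 296 on the Trp53KO array and 1146 on the GS array. The mGS value was 2.83-fold higher than GS, and its other probe sets gave 0.38 and 0.73, in the same direction but smaller. Among the desaturases, Scd1 was 1.46-fold higher, Fads1 1.24-fold higher, Fads2 1.25-fold lower and Scd2 1.21-fold lower. Elovl5, an elongase of polyunsaturated fatty acids, had 3489 on the ES array, 4205 on the mGS array, 8799 on the Trp53KO array and 7522 on the GS array, 1.79-fold lower on mGS than on GS. Over all members, 18 were 2-fold or more apart between mGS and GS. Of these, 11 had a further probe set above the floor, and in all 11 every such probe set went in the same direction.

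**Figure D2:**
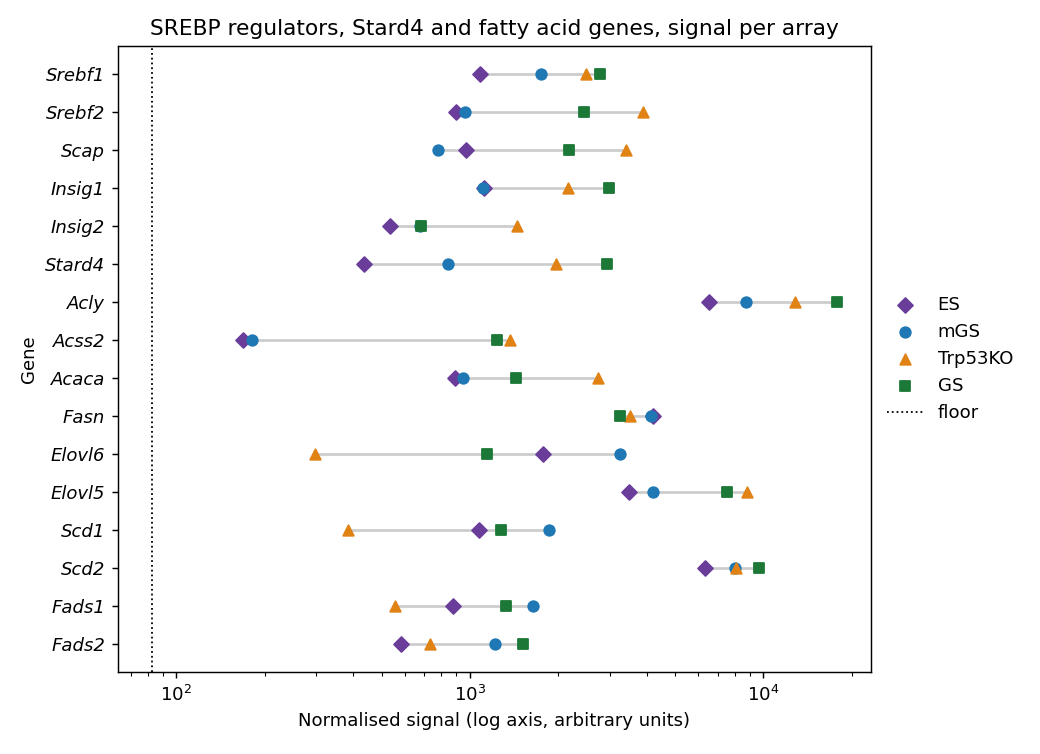
Normalised signal (horizontal log axis, arbitrary units) of the SREBP regulators, Stard4 and the 10 fatty acid genes, with 1 symbol for each array and a dotted line at the floor. Acss2 lies at 169 and 181 on the ES and mGS arrays and at 1373 and 1235 on the Trp53KO and GS arrays, while Fasn lies close together on all 4 arrays.

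The comparison of Trp53KO with GS cells sets both GS cultures against each other in the same medium. A strain, ICR, is named only for the knockout, so genotype, any difference of strain and the separate cultures cannot be told apart. On the chosen probe sets, part of the cholesterol genes, Elovl6 and 3 of 4 desaturase genes for fatty acids were lower on the knockout array by 2-fold or more. By 2-fold or more, 4 of 23 cholesterol genes were lower and 2 higher, with a median of -0.45. Of 10 fatty acid genes, 4 were lower by this size and 0 higher, and their median was -0.36. Over 11623 genes, 6.93% were lower and 9.77% higher by this size, and the median was 0.07. The lower cholesterol genes were Cyp51, Hmgcs1, Nsdhl and Idi1, by 3.07-fold, 2.44-fold, 2.33-fold and 2.09-fold. Their signals on every array are given above. Lss, at 1.95-fold lower, was just outside. Hmgcs1 had a log2 difference of -0.65 when probe sets prone to cross-hybridisation were left out. This comparison and that of mGS with GS share the GS array.

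Sc5d and Insig2 were 2.13-fold and 2.12-fold higher on the Trp53KO array. Sc5d had 730.5 on the ES array, 557 on the mGS array, 1298 on the Trp53KO array and 609.9 on the GS array, and Insig2 had 534, 675, 1444 and 681 in the same order. For both genes the Trp53KO array stood above the other three. Other probe sets went the other way, -0.58 for Sc5d and between -0.17 and -0.07 for Insig2, so neither direction held over probe sets. Both fell short of 2-fold when the arrays were centred on their medians. Dhcr7 was above GS by 1.77-fold, Srebf2 by 1.59-fold and Scap by 1.56-fold, and another probe set of Srebf2 gave -0.31.

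The lower fatty acid genes on the Trp53KO array were Elovl6 and the desaturases Scd1, Fads1 and Fads2, which insert unsaturated bonds into acyl chains. Scd1 had 1077 on the ES array, 1858 on the mGS array, 385 on the Trp53KO array and 1277 on the GS array. Fads1 had 875 on the ES array, 1640.2 on the mGS array, 556 on the Trp53KO array and 1327 on the GS array. Fads2 had 580.5 on the ES array, 1219 on the mGS array, 732 on the Trp53KO array and 1523 on the GS array. On all 3 the Trp53KO array was below GS, and the ES array was below mGS. Against GS, Elovl6 was 3.87-fold lower, Scd1 3.31-fold, Fads1 2.39-fold and Fads2 2.08-fold. The 2 other probe sets of Elovl6 gave -2.02 and -2.01 and that of Scd1 -1.32, whereas the other probe set of Fads1 gave 0.01 and those of Fads2 gave -0.83 and -0.67. With the mean of probe sets, 2 fatty acid genes were lower by 2-fold or more. Scd2, the other desaturase, differed by -0.26 on the log2 scale on its chosen probe set. Its other probe sets gave -1.15, past the counted size, and -0.22. Acaca went the other way, 1.90-fold higher, and Fasn and Acss2 differed by 1.09-fold and 1.11-fold. The lower proliferation markers and the lower bioC control on the Trp53KO array are given above, and their part in these differences was not tested.

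**Figure D3:**
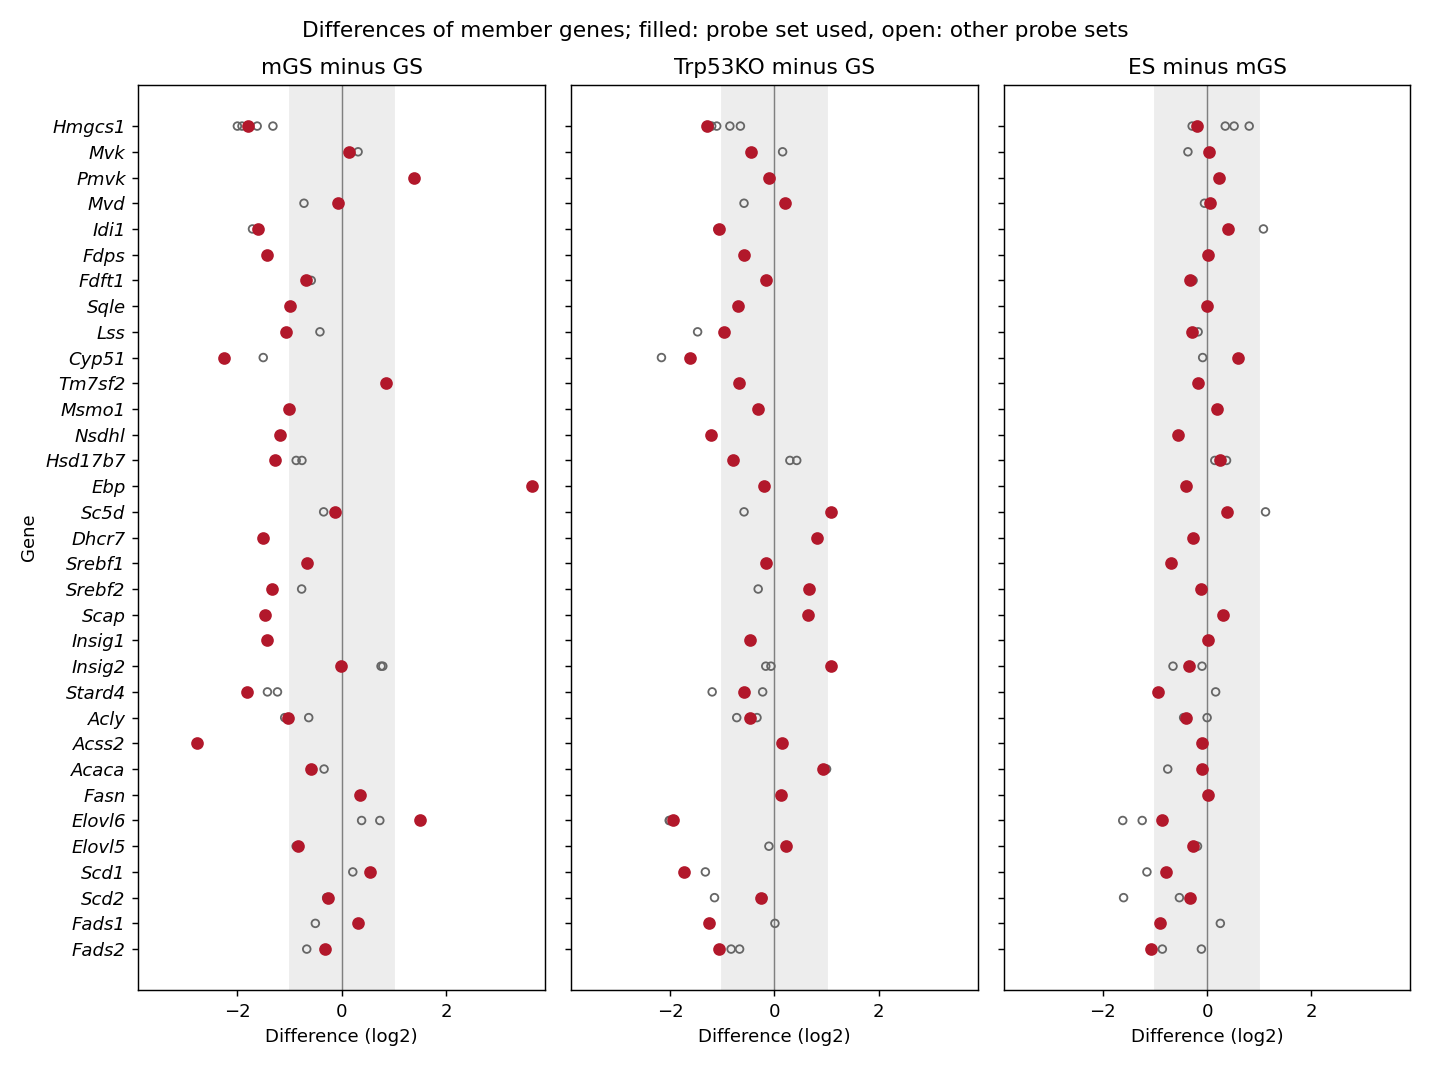
Log2 difference (horizontal axis) of the 33 measured genes for mGS minus GS, Trp53KO minus GS and ES minus mGS, with filled points for the probe set used and open points for further probe sets above the floor on all 4 arrays. The grey band marks differences within 2-fold, which holds 15, 23 and 32 of the filled points in the panels from left to right.

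ES and mGS cells are pluripotent cells of different origin in the same kind of medium. Of 33 genes, 32 lay within 2-fold, against 88.0% of all 11816 genes, and no cholesterol gene was outside, with a median of -0.01. This count depended on the setting: centred on array medians, 1 cholesterol gene and 3 fatty acid genes were lower on ES by 2-fold or more, and with the mean of probe sets 1 cholesterol gene, Lss at -1.02, was lower. Among all genes 6.9% were higher and 5.13% lower on the ES array by 2-fold or more. Fads2 was the exception, 2.10-fold lower on the ES array. Its other probe sets gave -0.86 and -0.11, and its difference was -0.68 with the mean of all its probe sets. The fatty acid median was -0.37, with 9 of 10 genes lower on ES and Fasn higher by 1.02-fold.

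The genes nearest to Fads2 in size were Stard4, 1.93-fold lower, Fads1, 1.88-fold lower, Elovl6, 1.82-fold lower, and Scd1, 1.73-fold lower on the ES array. Other probe sets of Elovl6 gave -1.62 and -1.24 and that of Scd1 -1.15, past the counted size, while that of Fads1 gave 0.25. Scd2 was 1.26-fold lower on the ES array, and its other probe sets gave -1.60 and -0.53. Among cholesterol enzymes, on their chosen probe sets, Cyp51 was the farthest in the other direction, 1.51-fold higher on ES, and its further probe set gave -0.08. Idi1 and Sc5d had 0.40 and 0.39 on their chosen probe sets, but another of each gave 1.08 and 1.12, past the counted size. Other probe sets of Hmgcs1 ranged from -0.29 to 0.81. Fibroblast markers were higher on the ES array than on mGS, 13 of 14 compared by 2-fold or more, and their part in the desaturase values was not tested.

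Scd1, Fads1, Fads2 and Elovl6 were lower both on Trp53KO than on GS and on ES than on mGS, comparisons that share no array. Acly, at -0.47 and -0.41, and Scd2, at -0.26 and -0.33, were lower in both as well, by less. Only Fads2 was past 2-fold in both. The other probe set of Fads1 gave 0.01 and 0.25, so it was lower in neither. As a division of the arrays, ES and Trp53KO against mGS and GS, 3 fatty acid genes and 1 cholesterol gene were lower with no overlap between the pairs, and 1 cholesterol gene was higher. Over 12897 genes, 7.92% were lower and 9.33% higher in this way. The fatty acid genes were Fads2, with a smallest gap of 1.66-fold, Fads1, with 1.52-fold, and Scd1, with 1.19-fold. Nsdhl was lower by a smallest gap of 1.03-fold, and Sc5d was higher by 1.20-fold. None reached 2-fold. The dap control split the arrays into the same pairs, with values given above, and its part in these differences was not tested.

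Medium and cell type together divided the arrays into ES and mGS on the side of ES medium and Trp53KO and GS on the side of GS medium. Of 23 cholesterol genes, 17 were lower on both arrays in ES medium than on both arrays in GS medium, and 4 were higher. Some of the 17 were split by very little, Insig2 and Mvd by a smallest gap of 1.01-fold, Cyp51 by 1.04-fold, Lss by 1.07-fold and Idi1 by 1.11-fold. Other probe sets of Insig2 went the other way, at 0.75 and 0.79 for mGS minus GS. Another probe set of Cyp51, Idi1, Lss and Msmo1 was higher on ES than on Trp53KO, by log2 differences of 0.58, 0.45, 0.88 and 0.41. For Msmo1 this is a bound. The split of these genes thus depended on the probe set. Of the 4 higher genes, Mvk was split by 1.10-fold, and its other probe set was lower on ES than on Trp53KO, at -0.21. Of 10 fatty acid genes, 5 were lower and 2 higher. The median signal of the 23 cholesterol genes was 1029 on the ES array, 1106 on the mGS array, 1962 on the Trp53KO array and 2775 on the GS array. Of these genes 13 were highest on the GS array and 6 on the Trp53KO array, while 10 were lowest on ES, 9 on mGS, 4 on Trp53KO and 0 on GS. Over 12897 genes the groups did not overlap for 31.8%, lower in ES medium, and for 26.9%, higher. With a gap of at least 2-fold, 4 cholesterol genes were lower, Dhcr7 by 2.85-fold, Srebf2 by 2.54-fold, Stard4 by 2.34-fold and Scap by 2.24-fold, and 2 were higher, Ebp by 9.48-fold and Pmvk by 2.61-fold. Acss2 was the fatty acid gene past this size, 6.83-fold lower. Across all genes the gap reached 2-fold for 8.38%, lower, and 7.65%, higher. With the mean of each gene's probe sets, 2 cholesterol genes were lower by this gap. Other probe sets of Srebf2 and Stard4 fell short of it. That of Srebf2 had 880 on mGS and 1208 on Trp53KO, and 1 of Stard4 had 1005 and 1179 on the same arrays.

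A comparison of ES with Trp53KO, added after seeing the data, crosses the media with no array in common with mGS against GS. By 2-fold or more, 6 of 23 cholesterol genes were lower and 3 higher on the ES array, and the median was -0.51. Of 10 fatty acid genes, 3 were lower and 2 higher. Over all 12325 genes, 21.5% were lower and 18.8% higher, so the share of lower cholesterol genes was near the background here. Acss2 was 8.14-fold lower, Dhcr7 6.05-fold, Stard4 4.50-fold, Srebf2 4.37-fold and Scap 3.50-fold. Ebp was 10.8-fold higher, Elovl6 6.01-fold, Pmvk 3.29-fold, Scd1 2.80-fold and Tm7sf2 2.56-fold. Log2 differences of another probe set were -3.24 for Acss2, a bound, -0.55 for Srebf2, 0.38 for Scd1 and -0.06 for Scap, near the floor. Those of Stard4 gave -1.16 and -0.84 and those of Elovl6 1.12 and 1.15. Insig2, counted as lower, had -1.44 on its chosen probe set but 0.30 and 0.72 on others, so its direction depended on the probe set.

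All 33 members had the same direction in ES minus Trp53KO as in mGS minus GS, against 8720 of 11409 genes, 76.4%. The sizes differed by gene. Cyp51, Idi1 and Hmgcs1, for which the Trp53KO array was itself below GS, were closer between ES and Trp53KO than between mGS and GS, whereas Acss2 and Dhcr7 were farther apart. Cyp51 was 1.04-fold, Idi1 1.11-fold and Hmgcs1 1.62-fold lower on ES than on Trp53KO. With the mean of each gene's probe sets, 25 of 33 members had a common direction, which is no larger a share than the 76.0% of all genes in that setting. With the values as deposited it was 31 members, against 76.8% of all genes. At the level of probe sets, 57 of 63 that were above the floor on all arrays had the same direction, and the other 6 belonged to Cyp51, Fads2, Idi1, Lss, Mvk and Sc5d.

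**Figure D4:**
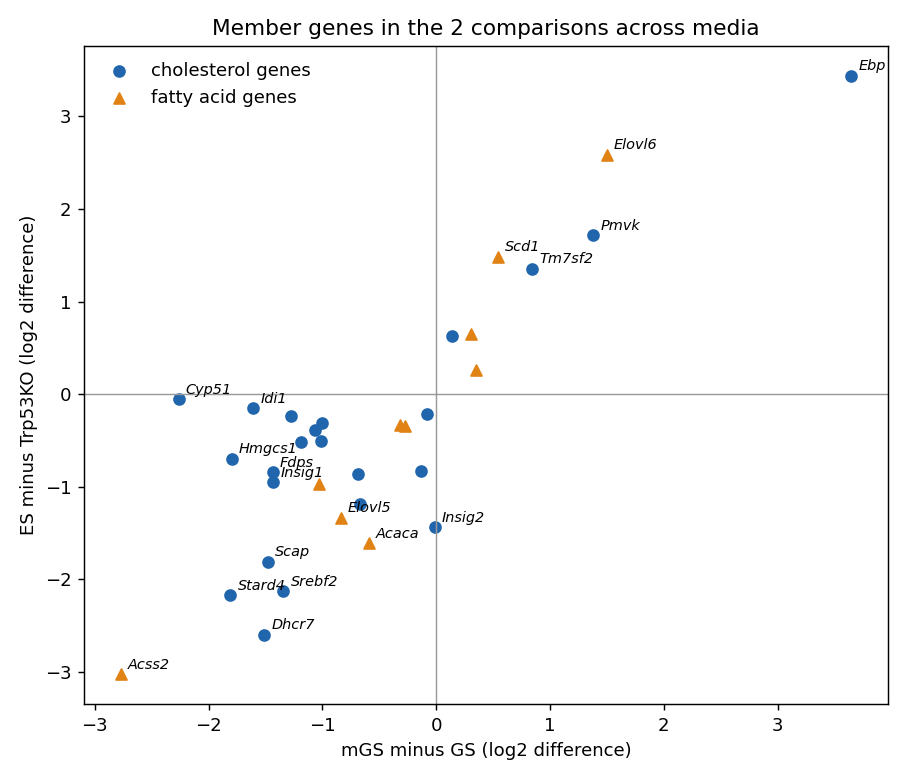
Log2 difference of mGS minus GS (horizontal axis) and ES minus Trp53KO (vertical axis) for 33 genes, with circles for cholesterol genes and triangles for fatty acid genes. All points lie in the lower left or upper right quadrant, with Acss2 at -2.77 and -3.03 and Ebp at 3.65 and 3.44, and Cyp51 lies at -2.26 and -0.05, near the horizontal line at 0.

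Genes next to these pathways were described from lists of related genes. In sterol uptake, efflux and storage, 11 of 16 genes could be compared between mGS and GS, of which 3 were lower and 1 higher by 2-fold or more. Of all genes 16.5% were lower and 15.3% higher. Abca1, which exports cholesterol from cells, had 409 on the ES array, 1063 on the mGS array, 13751 on the Trp53KO array and 3531 on the GS array. It was highest on the Trp53KO array, 3.89-fold above GS, and it was 3.32-fold lower on mGS than on GS. Abcg1, another sterol exporter, and Scarb1, a receptor for lipoproteins, were 3.69-fold and 2.36-fold lower on mGS than on GS. Vldlr, a lipoprotein receptor, was 2.02-fold higher on mGS, and at least 3.03-fold lower on Trp53KO, than on GS. Other probe sets of Vldlr gave 0.45 and 1.14 for mGS minus GS, and another gave -0.12 for Trp53KO minus GS. Ch25h, which makes an oxysterol, was at least 2.74-fold higher on ES than on mGS.

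The isoprenoid branch, which draws on farnesyl diphosphate for protein prenylation and other products, had 3 of 12 genes higher and 2 lower on mGS than on GS by 2-fold or more, and its median was -0.07. The share lower was near the 16.5% of all genes, and 15.3% of all genes were higher. Fntb, a subunit of protein farnesyltransferase, had 583 on the ES array, 1302 on the mGS array, 102 on the Trp53KO array and 124 on the GS array, 10.5-fold higher on mGS than on GS. Zmpste24, which trims prenylated proteins, and Rabggtb, of the enzyme that prenylates Rab proteins, were 3.03-fold and 2.88-fold higher. Icmt, the methyltransferase of prenylated proteins, was 3.02-fold lower. No gene of this list was 2-fold apart between Trp53KO and GS.

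Of 7 genes of SREBP processing and sterol-regulated degradation, 2 were lower and 0 higher on mGS than on GS by 2-fold or more, against 16.5% and 15.3% of all genes, and the median was -0.61. They were the ubiquitin ligase gene Syvn1, 2.74-fold, and Erlin1, of a membrane complex that takes part in protein degradation at the endoplasmic reticulum, 2.09-fold. Their other probe sets gave -0.68 for Syvn1 and -0.38 for Erlin1, short of 2-fold. The SREBP protease genes Mbtps1 and Mbtps2, named after their values were seen, had log2 differences of -0.61 and 0.71. Further genes of lipid synthesis went in both directions, 4 higher and 6 lower of 23 compared between mGS and GS. Of all genes 15.3% were higher and 16.5% lower, so the share higher was near the background. The acyl-CoA synthetase genes split, with Acsl5 6.56-fold higher and Acsl3 4.48-fold lower on mGS than on GS. Dgat2, which makes triglyceride, and Me1, a source of NADPH, were 3.73-fold and 3.51-fold lower. Me1 was 3.14-fold higher on ES than on mGS.

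Fatty acid oxidation, which runs opposite to synthesis, had 3 of 14 compared genes higher and 2 lower on mGS than on GS by 2-fold or more, and its median was 0.27. All genes gave 15.3% higher and 16.5% lower. Etfb, which takes electrons from acyl-CoA dehydrogenases, was 5.73-fold higher, and Cpt2, of fatty acid import into mitochondria, 3.25-fold lower. Between Trp53KO and GS, 3 of 15 were higher and 1 lower, where all genes gave 9.77% and 6.93%. Hadhb, of the mitochondrial trifunctional protein, was 2.14-fold higher and Hadh, a dehydrogenase of shorter chains, 2.26-fold lower on the Trp53KO array. Their other probe sets were far short of this, at 0.17 and 0.31 for Hadhb and -0.28 and -0.20 for Hadh. No gene of this list was 2-fold apart between ES and mGS.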

How the data were processed

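The deposited values are linear intensities, 1 for each probe set on an array, made by the authors from Trizol-extracted RNA and biotin-labelled cRNA per the labels' protocols. Which software summarised the probes is not given here. The mean of each array was 500 after trimming 2% from each end. Of 45101 probe sets, 64 controls were left out. Log2 values of 45037 probe sets were quantile normalized over 4 arrays, which hides changes in total RNA, and "signal" is the value on the linear scale. Probe sets with 1 gene symbol in the platform annotation were used, with symbols updated to GRCm38.p6. A gene took its probe set of highest mean. Values under the array median, 82.7, were raised to it and then give "at least" folds, and genes under it on both arrays gave none. The members, lists and comparisons were chosen with earlier results of these data known. All members were named, and up to 4 related genes per list and comparison. The number of arrays limits the precision. The steps were tested on simulated data. Python 3.11.15, numpy 2.4.6, pandas 2.3.3 and matplotlib 3.10.9 were used.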

Additional observations from a re-analysis of the deposited data

How the results depend on the processing

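The results were recomputed with deposited values in place of quantile normalization, with arrays centred on their medians, with probe sets averaged per gene, without those prone to cross-hybridisation, with those of several symbols, with the floor at the percentile 30 or 60, without a floor, and with a pseudocount of 32 instead. The comparison of ES with Trp53KO and the count of common directions were added after seeing the data. Of 261 recomputed counts and medians, 246 kept their direction and side of 2-fold, or stayed within 1.5 times for counts. Such a count was that of lower cholesterol genes for mGS minus GS, 13 in the main setting. It was 9 with the mean of probe sets and 11 without those prone to cross-hybridisation. With the mean of probe sets, the cholesterol median for mGS minus GS was -0.76, the fatty acid genes at least 2-fold numbered 0 higher and 1 lower for mGS, 2 lower for Trp53KO against GS and 1 higher for ES against Trp53KO, the cholesterol genes numbered 0 higher for Trp53KO against GS and 1 lower for ES against mGS, and those lower across media by 2-fold numbered 2. Without probe sets prone to cross-hybridisation, the cholesterol median was -0.9988 for mGS minus GS and 0.0028 for ES minus mGS, where the main value was -0.0073. With centring on medians, which moved the median of all genes by -0.16 for Trp53KO minus GS and -0.11 for ES minus mGS, 1 fatty acid gene was lower on mGS than on GS, 1 cholesterol gene and 3 fatty acid genes were lower on ES than on mGS, and 0 cholesterol genes were higher on Trp53KO than on GS. With the values as deposited, 1 fatty acid gene was lower on mGS than on GS. The cause of these changes was not tested. Of 1186 values of single genes, 1149 kept their side of 2-fold and none changed direction from a counted difference. Of 18 genes at least 2-fold apart between mGS and GS, 11 stayed so under every alternative, and of 10 between Trp53KO and GS, 5 did. No paired analysis was possible because each group has 1 array.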
